A study of Mus musculus with 11 samples.

Results

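The genes described are 10 members of the interleukin-1 (IL-1) system in the liver of *ob/ob* mice with metabolic dysfunction-associated steatohepatitis (MASH). They were chosen by symbol from the table of read counts, which holds 46603 genes, and all 10 were found: the cytokines *Il1a*, *Il1b*, *Il18* and *Il33*, the receptor antagonist *Il1rn*, the receptor genes *Il1r1*, *Il1rap* and *Il1rl1*, and the inflammasome genes *Nlrp3* and *Casp1*. Bulk mRNA of the left lateral lobe was sequenced from 11 male B6.V-Lep ob/JRj mice, which lack leptin and are therefore obese. Every mouse, controls included, had been fed the AMLN diet, rich in trans-fat, fructose and cholesterol, from 5 to 6 weeks of age, for 15 weeks before treatment and throughout it, and had a baseline biopsy showing steatosis and fibrosis. INT-767 is a bile acid analog and an agonist of the receptors FXR and TGR5. For 8 weeks 4 mice were gavaged with it daily at 10 mg/kg, and 7 mice with the vehicle, 0.5% carboxymethyl cellulose. Both groups are leptin-deficient and stayed on the diet, so the comparison describes treatment of established disease in this model and holds no lean or healthy liver.

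IL-1 alpha and IL-1 beta bind the receptor IL-1R1, which signals only after it recruits the accessory protein encoded by *Il1rap*. The antagonist encoded by *Il1rn* occupies IL-1R1 without recruiting it. The same accessory protein also serves the IL-33 receptor, encoded by *Il1rl1*. IL-1 beta and IL-18 are made as inactive precursors, and caspase-1 cleaves them inside the inflammasome, a complex assembled by sensors such as NLRP3. In liver, macrophages are a known source of IL-1 and of NLRP3, while hepatocytes are known to produce antagonist and acute phase proteins when IL-1 reaches them.

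The vehicle libraries held 7966963 to 15295230 counts and the INT-767 libraries 7381211 to 16022459. Levels are given as CPM, the count relative to a library size scaled by edgeR's TMM factors, and fold changes as log2 of INT-767 over vehicle with their 95% interval. An adjusted *p* is the Benjamini-Hochberg value from edgeR's quasi-likelihood test over 13880 genes, and a gene is called where it is under 0.05. The CPM of single genes also went into an exact Mann-Whitney test (two-sided), whose smallest possible *p* with 4 against 7 mice is 0.00606. The labels give every sample as a separate mouse.

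The response to the drug was visible in each of 5 genes that FXR agonists are known to move, all of them called. *Nr0b2*, which encodes the repressor SHP, was 17.1 ± 5.92 CPM with vehicle (SD, n = 7) and 49.7 ± 9.50 with INT-767 (SD, n = 4). The export genes *Abcb11* (by 1.64 on the log2 scale) and *Slc51b* (by 3.43) rose too, and the bile acid synthesis genes *Cyp7a1* (-1.62) and *Cyp8b1* (-4.60) fell.

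The libraries did not differ by treatment alone. The main axis of variation of log2 CPM held 58.7% of the variance, and along it vehicle mice 1 and 7 lay at -41.2 and -19.0, apart from the other 5 vehicle mice at 18.2 to 62.0. On the same axis INT-767 mice 2 and 4 lay at -73.2 and -90.3, apart from mice 1 and 3 at 1.54 and -7.06. The levels also followed GC content to a different degree in each library, with Spearman's rho across genes between -0.419 in vehicle mouse 1 and 0.440 in vehicle mouse 3. The labels name no batch for these mice. The tested members and all called genes of the pathway, marker and treatment check lists were therefore also fitted without these 4 libraries, which leaves 5 vehicle and 2 INT-767 mice, and with an offset for GC content and transcript length. Of the 5 treatment check genes 4 were still called without these libraries, with *Cyp7a1* at -1.69 (adjusted *p* = 0.081 from edgeR), and 5 under the offset.

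Of the 10 members, 9 had enough counts to be tested. *Il1rap* rose, *Il1rn* and *Nlrp3* fell, and the other 6 tested members were not called. The 3 called members are 33.3% of those tested, where 9.72% of all tested genes were called, 5.04% higher and 4.68% lower. Over all tested genes 700 were higher and 649 lower, and with scaling by library size only 331 and 1026, or with upper-quartile factors 467 and 812. The median log2 fold change was 0.18 over the 9 members and -0.01 over all tested genes. Scaling by library size only moved the median of all tested genes to -0.22. In 2 members, *Il1rap* and *Il1rn*, the levels of the groups did not overlap, as in 7.51% of all tested genes.

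**Figure D1:**
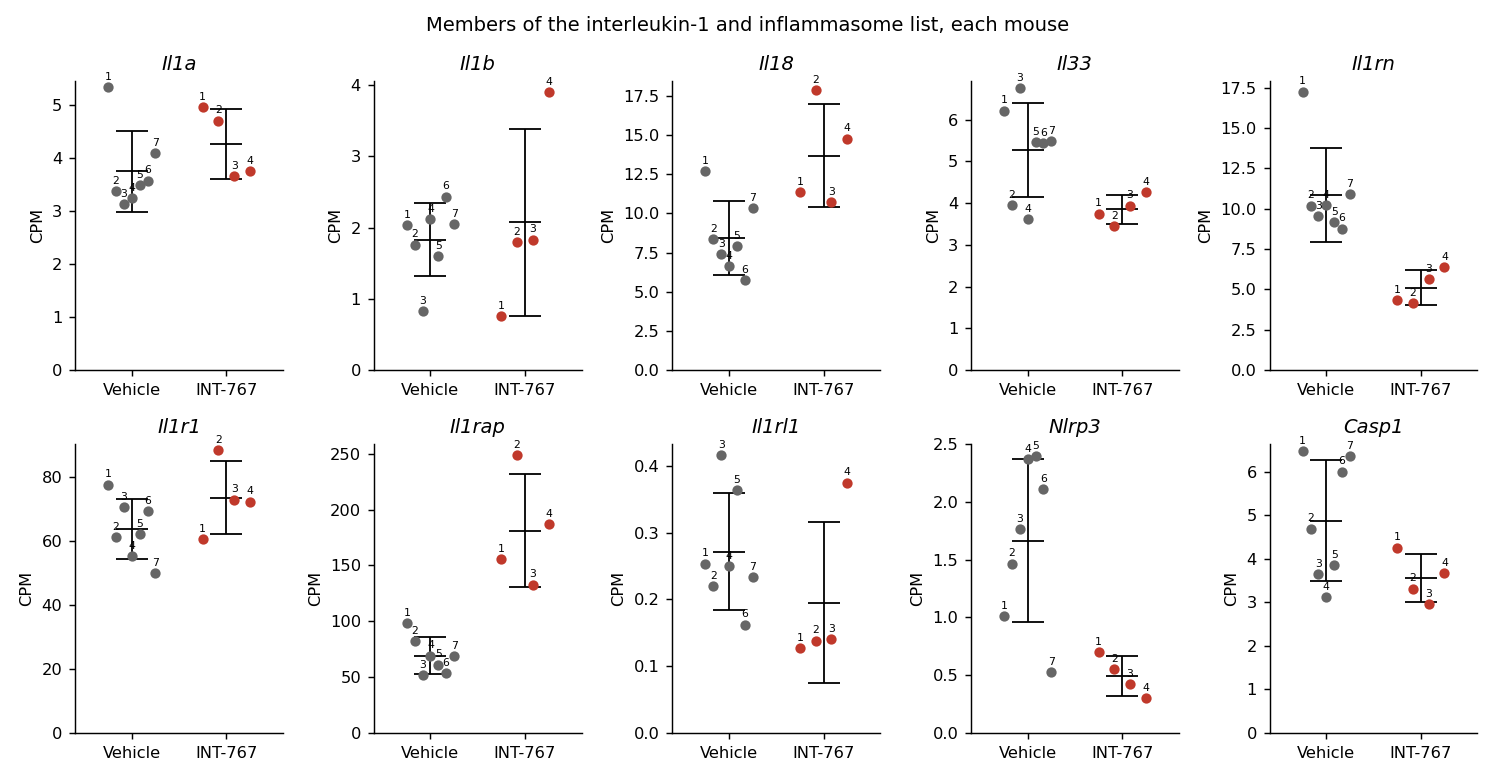
Level of each member in CPM (vertical axes from 0, each with its own scale) in 7 vehicle mice (grey) and 4 INT-767 mice (red), with the mouse's number, the group mean and a bar of 1 SD. All red points lie above the grey points for *Il1rap* and below them for *Il1rn*, and for *Nlrp3* vehicle mouse 7 lies among the INT-767 mice.

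*Il1rap*, the accessory chain shared by the receptors for IL-1 and IL-33, showed the clearest change of the list. It lies on the plus strand of chr16:26581704-26730117 (GRCm38), with 14 merged exons in the GENCODE M21 annotation. With vehicle its level was between 51.7 and 98.4 CPM (median 68.5), and with INT-767 it was 155, 249, 133 and 187 CPM in mice 1 to 4. Every treated mouse lay above every vehicle mouse, and the lowest treated mouse was mouse 3. Mean levels were 69.2 ± 16.5 CPM (SD, n = 7) and 181 ± 50.5 (SD, n = 4), a fold change of 2.62 (95% interval 1.92 to 3.57), or 1.39 on the log2 scale (adjusted *p* = 0.00397 from edgeR; exact Mann-Whitney *p* = 0.00606). Without the 4 libraries that stood apart the log2 fold change was 1.19 (adjusted *p* = 0.0017 from edgeR). The gene makes a membrane form, which signals, and a soluble form, which does not, and counts per gene do not separate them. An antisense gene, *Gm20319*, covers 4.86% of its exon bases.

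*Il1r1*, the signalling receptor for IL-1 alpha and IL-1 beta, lies on the plus strand of chr1:40225080-40317257. Its level was between 50.0 and 77.6 CPM with vehicle (median 62.2) and 60.6, 88.4, 72.9 and 72.2 CPM with INT-767. The groups overlapped over most of their range. On the log2 scale the fold change was 0.21 (95% interval -0.12 to 0.53; adjusted *p* = 0.34 from edgeR), and its sign turned with scaling by library size only, at -0.01. As fold changes, the ends of the interval are 0.919 and 1.45. The ratio of *Il1rap* to *Il1r1* in a mouse does not depend on how libraries are scaled, and in RPKM, which divides CPM by exon length in kilobases, it was between 0.410 and 0.767 with vehicle. With INT-767 that ratio was 1.44, 1.58, 1.02 and 1.45, above every vehicle mouse. It was computed after the levels had been seen and is given without a test.

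*Il1rl1*, which encodes the IL-33 receptor ST2, was too low to test. It had 22 counts in the 7 vehicle mice together and 9 in the 4 INT-767 mice, with 2 to 5 counts in a vehicle mouse and 2, 1, 1 and 5 in INT-767 mice 1 to 4. Most of these lie at or under 3 counts, the limit that a count of 0 allows, so no fold change is given (exact Mann-Whitney *p* = 0.164). At this depth no difference in *Il1rl1* was detected between treated and vehicle mice. Cell types known for ST2 also had few reads for most of their markers. Of 8 mast cell and group 2 innate lymphocyte markers only *Kit* was abundant enough to test (5.09 ± 1.79 CPM with vehicle and 2.65 ± 0.794 with INT-767, adjusted *p* = 0.0698 from edgeR), and *Il13* had 0 counts in all mice.

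*Il1rn*, the antagonist of IL-1R1, fell. It lies on the plus strand of chr2:24336853-24351494 with 6 merged exons. With vehicle its level was between 8.76 and 17.2 CPM (median 10.2), and with INT-767 it was 4.32, 4.15, 5.63 and 6.37 CPM. Every treated mouse lay below every vehicle mouse, and vehicle mouse 1 stood high above the other vehicle mice. Mean levels were 10.9 ± 2.90 CPM (SD, n = 7) and 5.12 ± 1.07 (SD, n = 4), a fold change of 0.473 (95% interval 0.339 to 0.661), or -1.08 on the log2 scale (adjusted *p* = 0.0139 from edgeR; exact Mann-Whitney *p* = 0.00606). Without the 4 libraries that stood apart it was -0.96 (adjusted *p* = 0.0146 from edgeR). Leaving out INT-767 mouse 2 ended the call, with a log2 fold change of -1.01 and an adjusted *p* of 0.0573 from edgeR.

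The agonists that this antagonist opposes gave no call. *Il1a*, which encodes IL-1 alpha, lies on the minus strand of chr2:129299610-129309972, with 11.2% of its exon bases under the antisense gene *Gm14023*. The level lay between 3.12 and 5.33 CPM with vehicle (median 3.49) and 4.96, 4.70, 3.66 and 3.75 CPM with INT-767. All treated mice were above the vehicle median, yet vehicle mouse 1 was the highest of all 11 mice. This gave a log2 fold change of 0.19 (95% interval -0.23 to 0.62; adjusted *p* = 0.493 from edgeR), with -0.01 by library size only and -0.21 under the GC content and length offset.

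*Il1b*, which encodes IL-1 beta, lies on the minus strand of chr2:129364570-129371139 and was lower still. In CPM it was between 0.832 and 2.43 CPM with vehicle (median 2.03) and 0.762, 1.80, 1.83 and 3.90 CPM with INT-767. The treated mice thus held both the lowest and the highest level of the 11 mice. The log2 fold change was 0.18 (95% interval -0.67 to 1.03; adjusted *p* = 0.755 from edgeR), and without INT-767 mouse 4 it was -0.39. An interval this wide holds a fold change of 0.629 as well as 2.04.

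Set against both agonists, the antagonist was lower in every treated mouse. The ratio of *Il1rn* to the sum of *Il1a* and *Il1b*, in RPKM, was between 0.513 and 0.857 with vehicle (median 0.671). With INT-767 it was 0.268, 0.225, 0.362 and 0.292. The ratio was chosen after the levels had been seen and is given without a test.

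*Il18*, a cytokine that is kept as a precursor in many liver cells, lies on the plus strand of chr9:50554827-50581840. Its level was between 5.76 and 12.7 CPM with vehicle (median 7.92) and 11.4, 17.8, 10.7 and 14.8 CPM with INT-767. All treated mice were above the vehicle median, and vehicle mouse 1 overlapped them. On the log2 scale the fold change was 0.69 (95% interval 0.21 to 1.18; adjusted *p* = 0.0656 from edgeR; exact Mann-Whitney *p* = 0.0242). *Il18* was called by DESeq2 (adjusted *p* = 0.0272) and by edgeR without vehicle mouse 1 (adjusted *p* = 0.0214), and under the GC content and length offset its log2 fold change was 0.31 (adjusted *p* = 0.133 from edgeR).

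*Il18bp*, which encodes the soluble protein that captures IL-18, fell. The level lay between 16.6 and 28.5 CPM with vehicle (median 23.9) and 16.5, 12.4, 14.6 and 11.1 CPM with INT-767. The groups did not overlap, although the highest treated mouse and vehicle mouse 1 were nearly level. This gave a log2 fold change of -0.78 (95% interval -1.20 to -0.36; adjusted *p* = 0.0291 from edgeR), and without the 4 libraries it was -0.73 (adjusted *p* = 0.0128 from edgeR). The call of *Il18bp* was lost when any of vehicle mice 3, 4, 5 and 6 or INT-767 mice 2 and 4 was left out, with the highest adjusted *p*, 0.117 from edgeR, without INT-767 mouse 2. The RPKM ratio of *Il18bp* to *Il18* had a median of 1.16 with vehicle (0.446 to 1.63) and of 0.361 with INT-767 (0.238 to 0.495), and vehicle mouse 1 lay among the treated mice.

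*Il33*, an alarmin stored in the nucleus of stromal and endothelial cells, lies on the plus strand of chr19:29925114-29960718. In CPM it was between 3.62 and 6.76 CPM with vehicle (median 5.45) and 3.75, 3.45, 3.94 and 4.27 CPM with INT-767. All treated mice were below the vehicle median, and vehicle mice 2 and 4 lay among them. The log2 fold change was -0.45 (95% interval -0.89 to -0.01; adjusted *p* = 0.147 from edgeR; exact Mann-Whitney *p* = 0.0727). Under the GC content and length offset it was -0.75 and called (adjusted *p* = 0.0451 from edgeR).

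*Nlrp3*, the inflammasome sensor, fell, from counts that were low in both groups. It lies on the plus strand of chr11:59541568-59566956 with 11 merged exons. It had 8, 20, 17, 19, 33, 26 and 9 counts in vehicle mice 1 to 7, and 11, 4, 3 and 4 in INT-767 mice 1 to 4. In CPM the range was 0.525 to 2.4 with vehicle (median 1.77), and the treated mice had 0.699, 0.553, 0.422 and 0.3. The treated mice lay below 6 of the 7 vehicle mice, and vehicle mouse 7 lay among them. On the log2 scale the fold change was -1.71 (95% interval -2.70 to -0.71; adjusted *p* = 0.0371 from edgeR; exact Mann-Whitney *p* = 0.0242), a fold change of 0.306 with an interval of 0.154 to 0.611. Vehicle mice 1 and 7, the lowest of their group, are among the libraries that stood apart, and without all 4 such libraries the log2 fold change was -1.73 (adjusted *p* = 0.0278 from edgeR).

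The call for *Nlrp3* rested on small differences between fits. It was lost by limma-voom (adjusted *p* = 0.0956) and when any 1 of vehicle mice 2, 3, 4, 5 and 6 or INT-767 mice 2, 3 and 4 was left out. Over these fits the adjusted *p* from edgeR was between 0.0509 without vehicle mouse 2 and 0.114 without INT-767 mouse 2, with log2 fold changes between -1.76 and -1.50.

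*Casp1*, the protease that matures IL-1 beta and IL-18, lies on the plus strand of chr9:5298517-5307265. Its level was between 3.12 and 6.47 CPM with vehicle (median 4.69) and 4.26, 3.32, 2.96 and 3.67 CPM with INT-767. All treated mice were below the vehicle median, with vehicle mice 3, 4 and 5 among them. This gave a log2 fold change of -0.45 (95% interval -0.98 to 0.08; adjusted *p* = 0.209 from edgeR). Under the GC content and length offset it was -0.93 and called (adjusted *p* = 0.0357 from edgeR), and without the 4 libraries that stood apart it was -0.21.

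**Figure D2:**
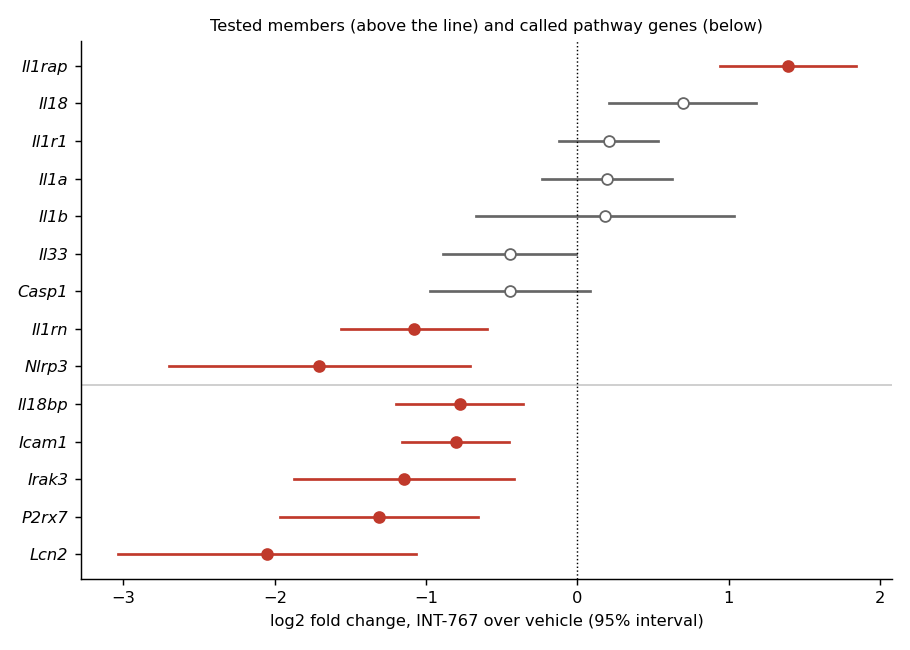
Log2 fold change of INT-767 over vehicle (horizontal axis) with its 95% interval for the 9 tested members and, under the line, the 5 called genes of the other IL-1 pathway lists. Red filled points are called. *Il1rap* at 1.39 is the only red point above 0, and the intervals of *Il1r1*, *Il1a*, *Il1b* and *Casp1* cross 0.

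Between genes, levels were compared in RPKM. With vehicle the order of the mean RPKM was *Il1r1* (10.0), *Il18* (8.18), *Il1rap* (6.09), *Casp1* (3.26), *Il1rn* (1.96), *Il1a* (1.90), *Il33* (1.83), *Il1b* (0.960), *Nlrp3* (0.410) and *Il1rl1* (0.0393). The ranges over mice separated *Il1rap* from *Casp1* and *Nlrp3* from *Il1rl1*, and every other neighbouring pair overlapped. With INT-767 *Il1rap* had the highest mean RPKM (15.9), followed by *Il18* (13.3) and *Il1r1* (11.6), with overlapping ranges. *Il1rn* moved from rank 5 to rank 8 of the 10 members, at 0.924, and its range overlapped that of *Il1b* at 1.09. Exon length was taken over all annotated transcripts, so RPKM of a gene that mostly uses a short transcript is understated.

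**Figure D3:**
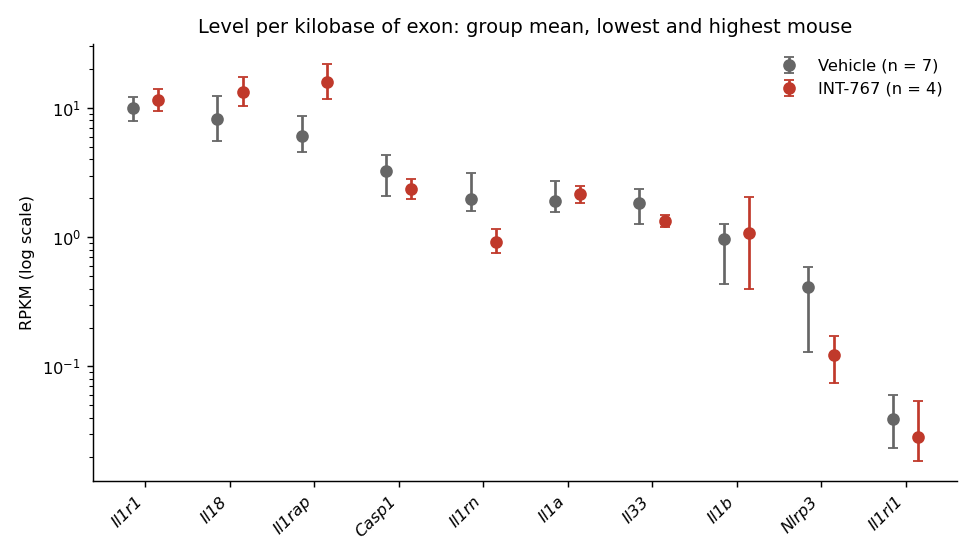
Mean RPKM (vertical axis, log scale) of each member in 7 vehicle mice (grey) and 4 INT-767 mice (red), ordered by the vehicle mean, with bars from the lowest to the highest mouse. *Il1rap* moves from rank 3 to the highest level, and *Il1rl1* is the lowest in both groups.

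Promoters of the called members are shown because those members are the ones whose RNA differed, with 1 of the 3 windows of *Il1rn* left out because it overlaps the downstream window shown. Each sequence is the RefSeq window (GRCm38.p6) from 250 bases before to 50 bases after an annotated start, on the plus strand, and such windows were found for all 10 members. Capitals mark matches, on either strand, to the nuclear receptor half-site AGGTCA, to the AP-1 site TGANTCA and to the consensus of NF-kB, the factor IL-1 signalling is known to activate. The half-site occurs in 16.3% of the 32817 promoter windows, the AP-1 site in 7.81% and the NF-kB consensus in 8.46%. The IR-1 element, an inverted pair of half-sites known as the FXR site, was searched as an exact match and occurs in 3 of the windows, none of a member.
Il1rap, chr16:26581455-26581754: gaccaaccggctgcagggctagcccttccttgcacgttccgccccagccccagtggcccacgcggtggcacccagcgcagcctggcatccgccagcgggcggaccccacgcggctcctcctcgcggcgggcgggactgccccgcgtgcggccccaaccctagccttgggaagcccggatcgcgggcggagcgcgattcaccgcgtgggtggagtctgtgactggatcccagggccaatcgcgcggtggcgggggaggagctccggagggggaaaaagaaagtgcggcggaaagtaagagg
Il1rn, upstream start, chr2:24336610-24336909: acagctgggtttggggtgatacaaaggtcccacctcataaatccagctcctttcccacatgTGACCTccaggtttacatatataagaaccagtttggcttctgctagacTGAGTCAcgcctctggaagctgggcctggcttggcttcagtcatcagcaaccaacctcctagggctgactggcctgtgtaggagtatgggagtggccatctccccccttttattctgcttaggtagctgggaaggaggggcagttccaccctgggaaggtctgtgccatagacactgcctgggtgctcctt
Il1rn, downstream start, chr2:24345121-24345420: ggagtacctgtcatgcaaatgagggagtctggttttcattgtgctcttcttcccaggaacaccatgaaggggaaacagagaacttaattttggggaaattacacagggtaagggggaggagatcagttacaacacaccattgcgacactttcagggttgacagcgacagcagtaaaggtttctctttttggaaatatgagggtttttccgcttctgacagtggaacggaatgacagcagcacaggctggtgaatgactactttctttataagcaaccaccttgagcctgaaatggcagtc
Nlrp3, upstream start, chr11:59541319-59541618: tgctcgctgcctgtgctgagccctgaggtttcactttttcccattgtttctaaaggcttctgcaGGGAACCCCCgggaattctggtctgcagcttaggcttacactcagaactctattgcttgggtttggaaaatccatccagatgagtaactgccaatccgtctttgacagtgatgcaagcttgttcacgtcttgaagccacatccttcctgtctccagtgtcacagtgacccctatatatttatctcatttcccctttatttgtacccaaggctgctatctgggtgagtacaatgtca
Nlrp3, downstream start, chr11:59542436-59542735: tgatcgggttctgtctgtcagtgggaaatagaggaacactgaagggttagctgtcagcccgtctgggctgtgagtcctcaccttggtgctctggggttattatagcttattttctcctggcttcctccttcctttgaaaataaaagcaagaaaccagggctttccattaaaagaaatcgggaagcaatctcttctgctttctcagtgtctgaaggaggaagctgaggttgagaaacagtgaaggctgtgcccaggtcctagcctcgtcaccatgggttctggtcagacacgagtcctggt

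The window of *Il1rap* is rich in G and C, at 72.0%, and holds none of these motifs. The upstream window of *Il1rn* holds a half-site and an AP-1 site, and neither of its downstream windows holds any of the motifs. The upstream window of *Nlrp3* holds an NF-kB match and its downstream window none. Among the other members, the motifs occur in a window of *Il1a* (AP-1), *Il1r1* (NF-kB) and *Il1rl1* (half-site). These are matches of letters in short windows and do not show that a factor binds.

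The other genes of the pathway were described by lists that group them by role. Of 72 genes, 56 were tested, and 5 were called, all of them lower: *Il18bp* (described with *Il18*), *Irak3*, *P2rx7*, *Lcn2* and *Icam1*. They are 8.93% of those tested, near the 9.72% of all genes. The number called changed widely with the scaling, the tool and the mice left out, as given under "How the results depend on the processing". Fold changes were below 0 in 42 and above 0 in 14 of the tested genes, with a median of -0.39 against -0.01 over all tested genes.

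Of the 5 other ligands none was tested. *Il36rn*, *Il36a*, *Il36b* and *Il1f10* had 0 counts in all mice, which allows between 0.175 and 0.422 CPM depending on the depth of the mouse, for counting error only. *Il36g* had 12 counts over the vehicle mice and 13 over the INT-767 mice. Of the 8 other receptors and decoys, *Il1rapl1* and *Il1rapl2* had 0 counts in all mice. The decoy receptor *Il1r2*, which binds IL-1 without signalling, had 31 and 8 counts, and *Il18r1*, the ligand-binding chain for IL-18, had 63 and 25, too few to test. *Sigirr*, a receptor known to restrain IL-1 signalling, stood at 19.2 ± 2.12 CPM (SD, n = 7) and 23.4 ± 3.92 (SD, n = 4), with a log2 fold change of 0.29 (adjusted *p* = 0.17 from edgeR). *Il18rap*, the accessory chain for IL-18 (-1.39, adjusted *p* = 0.0776 from edgeR), and *Il1rl2*, the receptor for IL-36 (-1.0, adjusted *p* = 0.0583 from edgeR), were not called and were picked for mention after their values had been seen.

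Among the 23 genes of signalling downstream of the receptors, all tested, *Irak3* was called lower and none higher. That is 4.35% of those tested, where 9.72% of all tested genes were called. *Irak3* encodes IRAK-M, a kinase-like protein known to dampen the signal. The level lay between 3.33 and 7.30 CPM with vehicle (median 6.03) and 1.97, 1.38, 4.65 and 2.32 CPM with INT-767. INT-767 mouse 3 lay among the vehicle mice. The log2 fold change was -1.15 (95% interval -1.87 to -0.42; adjusted *p* = 0.049 from edgeR), and without the 4 libraries that stood apart it was -1.04 and no longer called (adjusted *p* = 0.0574 from edgeR). Leaving out vehicle mouse 2, 3, 4, 5 or 6 or INT-767 mouse 1, 2 or 4 also ended the call, with adjusted *p* from edgeR up to 0.168 without INT-767 mouse 2. The adaptor gene *Myd88* stood at 15.1 ± 0.963 CPM (SD, n = 7) and 14.6 ± 1.51 (SD, n = 4), a log2 fold change of -0.04 (95% interval -0.31 to 0.23), and like *Il18rap* it was picked after its values had been seen. The kinase gene *Chuk*, which had the highest mean CPM of the list over the 11 mice, had a log2 fold change of 0.41 (adjusted *p* = 0.156 from edgeR).

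Of 22 further inflammasome and pyroptosis genes, 20 were tested and *P2rx7* was called lower. That is 5% of those tested, where 9.72% of all tested genes were called. *P2rx7* encodes the ATP-gated channel known to trigger NLRP3. In CPM it was between 4.56 and 10.7 CPM with vehicle (median 5.66) and 3.88, 2.21, 3.10 and 1.80 CPM with INT-767. The groups did not overlap. On the log2 scale the fold change was -1.31 (95% interval -1.96 to -0.66; adjusted *p* = 0.0223 from edgeR), -1.08 without the 4 libraries (adjusted *p* = 0.0435 from edgeR), and not called when INT-767 mouse 2 (adjusted *p* = 0.0934 from edgeR) or mouse 4 (0.0544) was left out. *Txnip*, which encodes a thioredoxin-binding protein and had the highest mean CPM of the list over the 11 mice but not in the INT-767 mice alone, was 204 CPM on average with vehicle and 93.0 with INT-767 and was not called (log2 fold change -1.13, adjusted *p* = 0.0648 from edgeR). *Nlrp1a* and *Nlrp10* were too low to test. Genes of the *Naip* and *Nlrp1* families resemble each other in sequence, so their counts are uncertain.

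Of 14 genes known to respond to IL-1, 9 were tested and 2 were called, both lower. They are 22.2% of those tested, where 9.72% of all tested genes were called, 4.68% lower. *Lcn2*, an iron-scavenging protein made by hepatocytes in inflammation, was between 190 and 757 CPM with vehicle (median 225) and 81.0, 50.7, 52.8 and 130 CPM with INT-767. Every treated mouse lay below every vehicle mouse, and vehicle mice varied most, with mouse 3 highest. The log2 fold change of *Lcn2* was -2.05 (95% interval -3.04 to -1.07; adjusted *p* = 0.0191 from edgeR). Without the 4 libraries that stood apart it was -2.43 but no longer called (adjusted *p* = 0.0909 from edgeR), and it was -1.92 when INT-767 mouse 2 was left out (adjusted *p* = 0.0842 from edgeR).

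*Icam1*, an adhesion molecule for leukocytes, was between 21.9 and 35.9 CPM with vehicle (median 28.3) and 16.3, 14.5, 19.1 and 18.2 CPM with INT-767. The groups did not overlap. This gave a log2 fold change of -0.80 (95% interval -1.16 to -0.45; adjusted *p* = 0.013 from edgeR), and -0.83 without the 4 libraries (adjusted *p* = 0.0114 from edgeR). Leaving out INT-767 mouse 2 ended this call too (adjusted *p* = 0.0685 from edgeR). The gene *Gm47079* covers 11.7% of the exon bases of *Icam1* on the opposite strand. *Saa1*, the most abundant response gene, was 534 ± 401 CPM with vehicle (SD, n = 7) and 358 ± 211 with INT-767 (SD, n = 4) and was not called (adjusted *p* = 0.481 from edgeR). It shares sequence with *Saa2*, so the split of reads between them is uncertain. *Cxcl2*, *Il6*, *Ptgs2*, *Nos2* and *Csf3* were too low to test.

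Whole liver mixes cell types, and in bulk RNA fewer cells of a type and less RNA per cell cannot be told apart. Over all marker lists 8 of 64 tested genes were called, all lower. Of all tested genes 9.72% were called, made up of 5.04% called higher and 4.68% called lower. Macrophage markers moved unevenly. Fold changes were below 0 in 11 of them and above 0 in 1, *Clec4f* (0.53 on the log2 scale, adjusted *p* = 0.384 from edgeR). *Clec4f* lay below every vehicle mouse in INT-767 mice 1 and 3 and above every vehicle mouse in mice 2 and 4. Of 12 macrophage markers, all tested, 3 were called, all lower: *Csf1r* (-1.14 on the log2 scale, adjusted *p* = 0.00498 from edgeR), *Ctss* (-0.90, adjusted *p* = 0.00573 from edgeR) and *Cd68* (-1.16, adjusted *p* = 0.00943 from edgeR). The summed level of the list was between 922 and 1448 CPM with vehicle (median 1093), and 647, 719, 623 and 1537 CPM with INT-767. INT-767 mouse 4, which had the highest *Il1b* level, thus had the highest macrophage sum. The most abundant marker, *Lyz2*, was 399 CPM in that mouse, inside the vehicle range of 174 to 443. Its log2 fold change was -0.40 (adjusted *p* = 0.417 from edgeR). In the same mouse *Cd5l* (404 CPM), *C1qb* (203), *C1qa* (167) and *Clec4f* (150) lay above every vehicle mouse. *Csf1r*, *Ctss* and *Cd68* lay below every vehicle mouse there.

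Markers of monocytes and lipid-associated macrophages summed to between 234 and 321 CPM with vehicle and to 178, 69.5, 135 and 163 CPM with INT-767, with no overlap. Of 8 such markers 7 were tested and 2 called, both lower, where 9.72% of all tested genes were called. They were the integrin gene *Itgam* (-1.73 on the log2 scale, adjusted *p* = 0.00498 from edgeR) and *Cd9* (-0.76, adjusted *p* = 0.0154 from edgeR). Exons of *Gm49368*, on the same strand, cover 68.7% of the exon bases of *Itgam*. The highest mean CPM, not corrected for length, was that of *Gpnmb* (-1.33, adjusted *p* = 0.0745 from edgeR). Of 7 neutrophil markers 3 were tested, and *Csf3r* was lower (-1.49, adjusted *p* = 0.0173 from edgeR). The other 2 tested, *S100a8* (0.31, adjusted *p* = 0.679 from edgeR) and *S100a9* (0.46, adjusted *p* = 0.571 from edgeR), had fold changes above 0 and were not called, and the defining gene *Ly6g* had 5 counts over the vehicle mice and 1 over the INT-767 mice. The sum of neutrophil markers was highest, at 29.0 CPM, in INT-767 mouse 4 (11.1 to 16.9 with vehicle), mostly from *S100a9*. Of the 8 called markers of all lists, 8 were still called under the GC content and length offset and 6 without the 4 libraries that stood apart, where *Cd9* (-0.45, adjusted *p* = 0.0675 from edgeR) and *Col1a1* (-2.94, adjusted *p* = 0.0658 from edgeR) were not. The part of these cell types in the levels of *Nlrp3*, *Il1rn*, *Il1b* and *P2rx7* was not tested.

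Hepatocyte markers gave no call among 8 tested. Their sum, mostly *Alb*, was between 55356 and 74695 CPM with vehicle. It was above every vehicle mouse in INT-767 mice 1, 2 and 3, at 101650, 103351 and 87657, and inside the vehicle range in mouse 4, at 58346. Fold changes were above 0 in 6 of the 8 and below 0 in 2, with a median of 0.55 on the log2 scale. The part of hepatocytes in the levels of the members, *Il1rap* included, was not tested. Stellate cell and myofibroblast markers summed to between 385 and 1169 CPM with vehicle and to 290, 162, 323 and 374 with INT-767. Of 9 tested 2 were called, *Col1a1* (-2.96, adjusted *p* = 0.0297 from edgeR) and *Pdgfrb* (-1.31, adjusted *p* = 0.0302 from edgeR). They are 22.2% of the list, where 9.72% of all tested genes were called, 4.68% lower. The most abundant was *Col3a1* (-1.40, adjusted *p* = 0.0516 from edgeR). None was called among 6 tested lymphocyte markers, 8 sinusoidal endothelial markers (*Stab2* among them), 6 cholangiocyte markers (most abundant *Spp1*) and 4 mesothelial markers (most abundant *Gpm6a*).

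**Figure D4:**
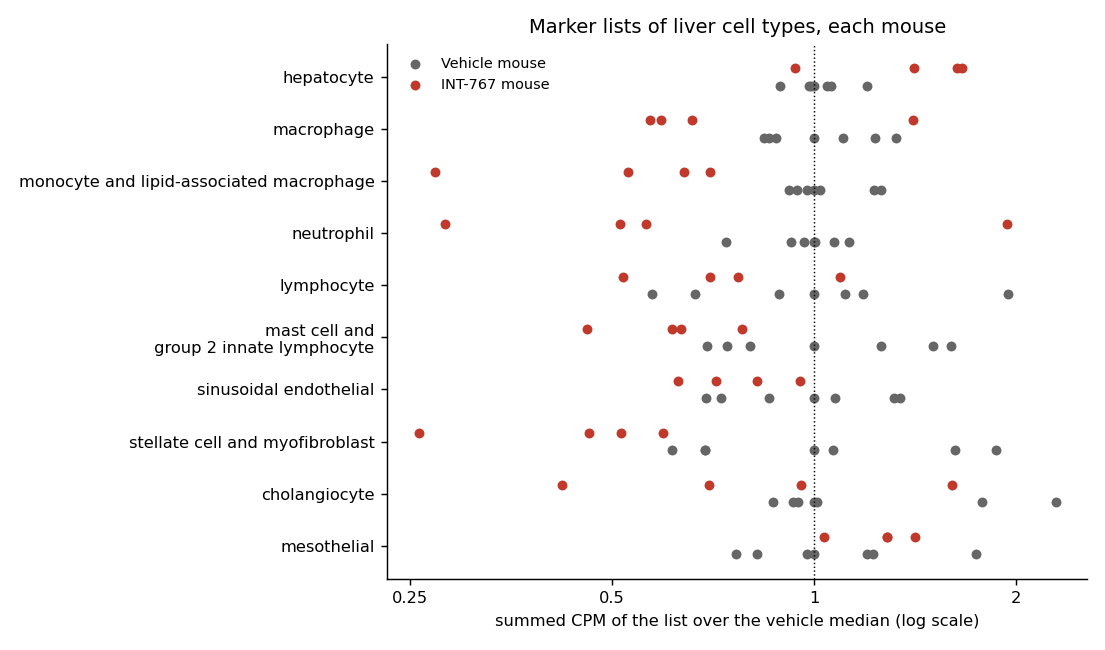
Summed CPM of each marker list in each mouse, over the vehicle median of that list (horizontal axis, log scale, dotted line at 1), for vehicle mice (grey) and INT-767 mice (red). The monocyte and stellate cell lists lie lower in all INT-767 mice than in any vehicle mouse. INT-767 mouse 4 lies above every vehicle mouse in the macrophage and neutrophil lists, and inside the vehicle range in the cholangiocyte list.

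The genes that varied most like each tested member within the groups are listed as a description. They were picked for the highest values among many genes, so a high *r* was likely in advance and no conclusion is drawn from it. The likeness was Pearson's *r* of log2 CPM over 11 mice after the group mean was removed, and the 3 closest genes were taken for each tested member. All genes of a mouse share its library and depth. The closest were *Mrpl9* for *Il1rap* (0.965), *Lrrcc1* for *Il1rn* (0.964), *Ak6* for *Il18* (0.967) and *9430034N14Rik* for *Nlrp3* (0.959). For the others they were *Dhrs9* for *Il1a* (0.932), *Gm15408* for *Il1b* (0.937), *P2ry14* for *Il33* (0.865), *Dpf3* for *Il1r1* (0.843) and *Gfpt1* for *Casp1* (0.897). No member was among the 3 closest genes of another. The next closest were *Gpatch11* and *Rnmt* for *Il1rap*, *Tmem87a* for *Il1rn*, *Slc6a7* and *Gm26632* for *Nlrp3*, and *Mpnd* and *Dctpp1* for *Il18*. They were *Cxcr4* and *Aif1l* for *Il33*, *Keg1* and *Acmsd* for *Il1a*, *Ddb2* and *Tomm40l* for *Il1b*, *Nxpe2* and *Arhgef26* for *Il1r1*, and *Mtpn* and *Degs1* for *Casp1*.

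**Figure D5:**
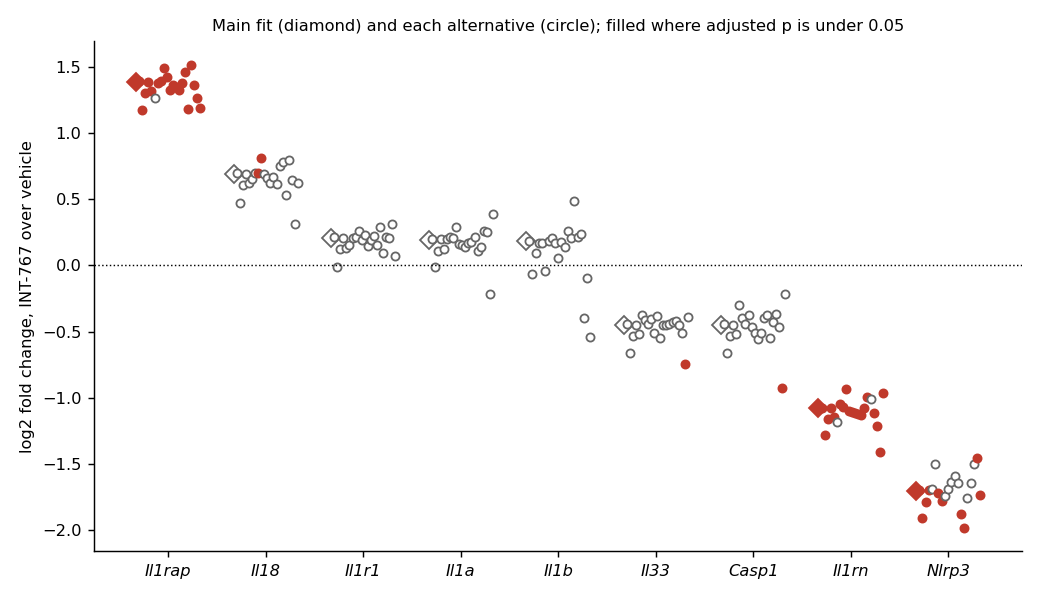
Log2 fold change of each tested member (vertical axis) in the main fit (diamond) and in each alternative fit (circles), filled red where called. *Il1rap* stays between 1.17 and 1.52 and *Il1rn* between -1.41 and -0.93, while *Il1a*, *Il1b* and *Il1r1* cross 0.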

How the data were processed

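Per the labels and the study's methods, the authors made stranded poly(A) libraries, read 75 cycles of each and used STAR for alignment to GRCm38 with Ensembl release 84. The submitters' processing notes name STAR 2.4.0 and the supplementary methods 2.5.2a. The authors deposited 1 table of whole-number read counts per gene for 11 mice, without normalization. Neither the counting program nor its strand setting is stated (not given in the sources used here), so reads of overlapping antisense genes may be included.

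Counts were compared in R 4.3.3 with edgeR 4.0.16 (TMM, filterByExpr with minimum counts of 10 per library and 15 in total, glmQLFit with robust estimation, glmQLFTest, treatment as the only term), which kept 13880 genes. For single genes an exact Mann-Whitney test (two-sided) enumerated all 330 assignments of mice. Alternatives used other scalings and filters, limma 3.58.1 (voom), DESeq2 1.42.0, a replicate block and each mouse left out. An offset for GC content and transcript length (lowess span 0.3) and the fit without 4 libraries that stand apart were chosen after seeing the data. All 3 tools were tested on simulated data. Copied libraries were looked for and not found: over pairs, the lowest median chi-square of a gene was 1.10, against 0.455 for random draws. RPKM used exon lengths from GENCODE M21. Floors of 3 counts cover counting error only, since reads are not independent molecules.

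The members and lists were chosen with earlier results of these data known. Genes named are all members, called genes of each pathway list (up to 6) or its most abundant gene (by mean CPM over the 11 mice, not corrected for length), untested ligands and receptors, of each marker list the most abundant gene and up to 2 called genes (and *Cd68*, named after its values were seen), the 5 genes that check treatment, and the 3 genes most like each member. A few results that this rule names are not reported here.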

Additional observations from a re-analysis of the deposited data

Results flagged for a closer look

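A mouse far from the rest of its group was looked for in 30 groups of values (15 genes in 2 groups), and 2 were found, where chance gives about 1 in 20. *Il1rn* in vehicle mouse 1, at 17.2 CPM against 10.9 in the next mouse, had a gap of 0.746 of the range of the 7 vehicle mice. The fall of *Il1rn* with INT-767 was still called without this mouse. *Il1rl1* in INT-767 mouse 4, at 0.375 CPM against 0.141 in the next, had a gap of 0.945 of the range of its group, and this rests on 5 counts against 1 or 2 in the other treated mice.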

How the results depend on the processing

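By edgeR, 3 members, 5 pathway genes and 1349 genes in all were called. Each was recomputed under 21 alternatives, and the counts for members moved by at most 1.5 times except where given here. The GC content and length offset called 5 members, adding *Il33* and *Casp1* as lower. For the pathway lists, library size only called 11, upper-quartile factors 8 and DESeq2 14, and over all genes DESeq2 called 2811. With each mouse left out in turn, the members called ranged from 1 to 4, the pathway genes from 0 to 14 and all genes from 274 to 3276, with the fewest in each without INT-767 mouse 2 and the most without vehicle mouse 1. Without INT-767 mouse 2 the member still called was *Il1rap*. The cause was not tested.

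Signs turned in 3 uncalled members. *Il1a* was -0.012 by library size only and -0.21 under the offset. *Il1b* was -0.061 by library size only, -0.039 by limma-voom, -0.094 under the offset and -0.54 without the 4 libraries that stood apart, and with each mouse left out it ranged from -0.39 without INT-767 mouse 4 to 0.49 without INT-767 mouse 1. *Il1r1* was -0.011 by library size only. *Il1b* and *Nlrp3* fell out where at least 10 counts in every mouse were asked for. *Il1rap* was called in 20 of 21 alternatives, *Il1rn* in 19 of 21 and *Nlrp3* in 10 of 20.

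The sources used here do not say that mice of the same number belong together, and the deviations of same-numbered mice from their group means correlated at -0.690, 0.215, 0.148 and -0.482 for numbers 1 to 4. With the replicate block edgeR called 0 members, 0 pathway genes and 0 genes in all, with 3 members and 1347 genes at an unadjusted *p* under 0.05. Vehicle mice 5, 6 and 7 have no treated mouse of their number, so they add nothing to the fold changes of that fit. It compares only the mice numbered 1 to 4, and fewer calls were likely in advance. In that fit *Il1rap* was 1.27 (adjusted *p* = 0.258), *Il1rn* -1.19 and *Nlrp3* -1.69. Low counts limit what can be said of *Nlrp3*, *Il1b* and *Il1rl1*.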
